A study of Homo sapiens with 6 samples.

Results

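ATP11A and 8 other genes of the phospholipid flippase machinery were followed in LNCaP cells with reduced MBD2. The 9 genes are the P4-ATPase genes ATP11A, ATP11B, ATP8A1, ATP8B1, ATP8B2, ATP9A, ATP9B and ATP10D and the subunit gene TMEM30A. They were taken from 16704 genes, each as the array feature annotated with that symbol alone, and each has 1 such feature, so isoforms of a gene are not told apart. The set was chosen by the difference of ATP11A between the groups in these same arrays, so all differences of the 9 genes between the groups are given as descriptions, without a test. The groups were 3 LNCaP clones carrying a short hairpin RNA against MBD2 and 3 clones with a scrambled hairpin. LNCaP is a prostate cancer cell line that responds to androgen, and both sets of clones carry the same silencing vector and were selected with neomycin, so the controls share vector and selection. Each sample is a stable clone with 1 array of cytoplasmic RNA, and a clone can differ from its neighbour for reasons other than the hairpin.

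P4-ATPases use ATP to move phospholipids from the outer or lumenal leaflet of a membrane to the cytoplasmic leaflet, which keeps phosphatidylserine and phosphatidylethanolamine on the inside of the cell. Most of them leave the endoplasmic reticulum only when bound to a CDC50 subunit, of which TMEM30A is the widely expressed one. ATP11A is a flippase of the plasma membrane for phosphatidylserine and phosphatidylethanolamine that caspases cut during apoptosis, when phosphatidylserine is exposed as a signal for engulfment. MBD2 is a reader of methylated CpG sites that brings the NuRD repressor complex to them.

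MBD2 was lower in all 3 knockdown clones. Its log2 values were 7.68, 7.84 and 7.81 in knockdown clones 1, 2 and 3, against 8.73, 9.24 and 9.20 in control clones 1, 2 and 3, which left 41.2% of the control level (95% interval of the limma fit 32.6% to 52.0%). An exact two-sided permutation test of these 6 values gave p = 0.1, the smallest p that 3 against 3 allows. Of 16704 genes, 0 had an adjusted p under 0.05 in limma (0% called), while 657 higher (3.93%) and 911 lower genes (5.45%) had an unadjusted p under 0.05. The arrays had median log2 values of 6.31 to 6.33. Knockdown clone 1 had the highest lower quartile, 4.81 against 4.68 to 4.72 in the other clones. The SD of its values over genes was the smallest, 2.00 against 2.05 to 2.07. Knockdown clones 2 and 3 were the most alike pair, with an SD over genes of 0.185 between them, against 0.224 to 0.350 for the other pairs. Knockdown clone 1 was closer to control clones 1 and 2 (0.310 and 0.273) than to knockdown clones 2 and 3 (0.316 and 0.350). Of the luminal prostate markers, 6 of 10 were measured, and all except TRPM8 stood above the median of every array in all 6 clones. The mean log2 value of the 6 markers was 8.51 to 9.22 in knockdown clones and 8.59 to 9.03 in control clones. Single markers were less even. KLK3 had 8.66, 10.3 and 10.44 in knockdown clones 1, 2 and 3, against 8.67, 10.12 and 8.48 in controls. TRPM8 spanned 1.95 log2 units over the 6 clones. Of 11 measured markers of basal, stromal, endothelial and blood cells, 7 lay on average under the lower quartile of the arrays, among them PTPRC, DCN and PECAM1. The other 4 were brighter: COL1A1 averaged 7.33 in knockdown and 7.09 in control clones, CD68 6.51 and 6.30, KRT14 5.72 and 5.53, and COL1A2 5.43 and 5.42. The mean of these 11 was 4.50 to 4.60 in knockdown clones and 4.44 to 4.485 in control clones, and its part in the results below was not tested.

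ATP11A was higher in every knockdown clone than in any control clone. Its log2 values were 8.97, 8.94 and 9.29 in knockdown clones 1, 2 and 3, against 7.48, 7.37 and 6.93 in control clones 1, 2 and 3. The lowest knockdown clone stood 1.454 log2 units above the highest control clone, and by the size of that gap ATP11A ranked 1 among all 16704 genes. The mean was 9.06 ± 0.19 in knockdown clones and 7.26 ± 0.29 in control clones (log2, SD, n = 3 each), which is 1.80 more (SE 0.16), or 3.49-fold. By log2 fold change alone it ranked 7 among higher genes. These are values of whole cultures, so more cells with the transcript and more RNA per cell cannot be told apart. Knockdown clones 1, 2 and 3 lay 1.71, 1.68 and 2.03 above the control mean, so clone 1, which stood apart from the other knockdown clones in many genes, was as high in ATP11A as clone 2. Leaving out each clone in turn gave log2 fold changes of 1.64 to 1.91.

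The promoter of ATP11A is shown because MBD2 acts at CpG dinucleotides. In the RefSeq promoter table (GRCh38.p14), which covers 250 bases before to 50 after the start of a gene, the ATP11A window lies on the plus strand at chr13:112689788-112690087 and holds 37 CG dinucleotides, set in capitals.
ATP11A: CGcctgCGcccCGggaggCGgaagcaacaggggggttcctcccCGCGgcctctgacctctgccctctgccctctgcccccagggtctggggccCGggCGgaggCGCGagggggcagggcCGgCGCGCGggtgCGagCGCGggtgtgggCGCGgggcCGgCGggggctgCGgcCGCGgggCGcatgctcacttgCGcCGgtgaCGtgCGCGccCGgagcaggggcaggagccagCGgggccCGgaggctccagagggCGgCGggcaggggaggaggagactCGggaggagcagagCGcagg
Of 19104 such windows of genes on the array, 98.2% hold at least 1 CG, the median is 22, and 15.2% hold at least as many as ATP11A. Its GC content was 80.3% and its ratio of observed to expected CG 0.797. Windows with a GC content of at least 50% and a ratio of at least 0.6, the usual marks of a CpG island, made up 62.4% of all. DNA methylation was not measured in these arrays, so the sequence shows where CpGs are and not whether they are methylated.

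**Figure D1:**
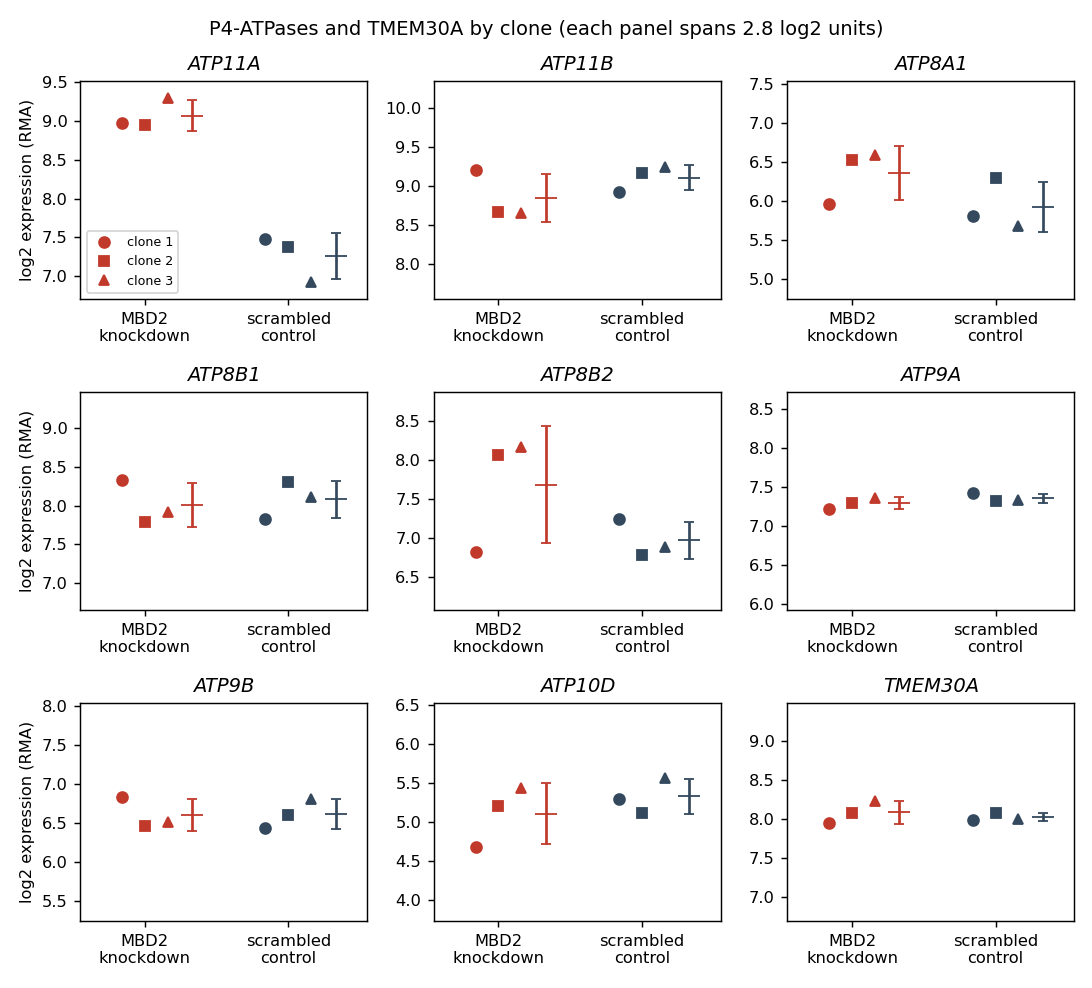
Log2 expression of the 9 flippase genes, with the knockdown clones in red on the left of each panel and the control clones in dark blue on the right. Symbols mark clones 1 to 3, the bars give mean ± SD (n = 3), and each panel spans the same log2 range around its own centre. ATP11A is the panel in which the groups are separated, with the knockdown clones between 8.94 and 9.29; in ATP8B2 knockdown clones 2 and 3 lie above the other 4 clones.

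Among the 9 genes, ATP11A was the 1 whose groups did not overlap. Over all genes, 6.57% lay higher without overlap and 8.87% lower without overlap, and 0 of the 9 were lower in that way; ATP11A was also the 1 member at least 2-fold higher (0.239% of all genes). The means of 4 members were higher in the knockdown clones and those of 5 lower. Their median log2 fold change was -0.015 (between -0.034 and 0.057 when single clones were left out), against -0.0043 over all genes, of which 48.7% were higher. Nothing is read from these counts, since the same arrays led to the choice of ATP11A.

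ATP11B, of the same subfamily as ATP11A, is a flippase of endosomes and the trans-Golgi network. Its log2 values were 9.20, 8.67 and 8.65 in knockdown clones 1, 2 and 3, against 8.92, 9.16 and 9.24 in control clones 1, 2 and 3. Clones 2 and 3 of the knockdown were the lowest of all 6, while clone 1 lay within the controls. The log2 fold change was -0.26 (SE 0.16), opposite in sign to that of ATP11A. Without knockdown clone 1 it was -0.44, and without knockdown clone 3 it was -0.17.

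ATP8A1 moves phosphatidylserine in endosomes and the Golgi. Its log2 values were 5.97, 6.53 and 6.60 in knockdown clones 1, 2 and 3, against 5.81, 6.30 and 5.69 in control clones 1, 2 and 3. Knockdown clones 2 and 3 were the highest, and control clone 2 lay above knockdown clone 1, so the groups overlapped. The log2 fold change was 0.43 (SE 0.21), and it lay between 0.31 and 0.63 when single clones were left out.

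ATP8B2, a flippase of the plasma membrane that prefers phosphatidylcholine, differed most between the knockdown clones. Its log2 values were 6.82, 8.07 and 8.17 in knockdown clones 1, 2 and 3, against 7.24, 6.78 and 6.89 in control clones 1, 2 and 3. Knockdown clones 2 and 3 stood 1.10 and 1.20 above the control mean, while clone 1 stood at -0.15 relative to it. The mean was 7.69 ± 0.75 in knockdown clones and 6.97 ± 0.24 in control clones (log2, SD, n = 3 each), and the log2 fold change was 0.72 (SE 0.34). This value depended on 1 clone: leaving out knockdown clone 1 gave 1.15, and leaving out knockdown clone 3 gave 0.48. From the highest to the lowest clone ATP8B2 spanned 1.39 log2 units, a wider range than in 98.3% of genes. The order of the clones in ATP8B2 was nearly the reverse of that in ATP11B, with knockdown clones 2 and 3 at one end and control clones 2 and 3 and knockdown clone 1 toward the other.

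RefSeq gives ATP8B2 a pair of starts 1051 bases apart on the plus strand, shown because they differ in CpG content; the single feature of the gene does not tell which start is used. The first window, at chr1:154327497-154327796, holds 2 CG (capitals), and 94.5% of all windows hold at least as many. The second, at chr1:154328548-154328847, holds 43, a count reached by 6.64% of windows.
ATP8B2 start 1: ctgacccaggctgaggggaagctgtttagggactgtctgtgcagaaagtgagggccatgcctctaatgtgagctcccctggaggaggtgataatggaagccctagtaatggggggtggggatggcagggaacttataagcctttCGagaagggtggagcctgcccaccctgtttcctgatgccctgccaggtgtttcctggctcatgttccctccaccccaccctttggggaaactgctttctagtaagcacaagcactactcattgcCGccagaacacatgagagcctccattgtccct
ATP8B2 start 2: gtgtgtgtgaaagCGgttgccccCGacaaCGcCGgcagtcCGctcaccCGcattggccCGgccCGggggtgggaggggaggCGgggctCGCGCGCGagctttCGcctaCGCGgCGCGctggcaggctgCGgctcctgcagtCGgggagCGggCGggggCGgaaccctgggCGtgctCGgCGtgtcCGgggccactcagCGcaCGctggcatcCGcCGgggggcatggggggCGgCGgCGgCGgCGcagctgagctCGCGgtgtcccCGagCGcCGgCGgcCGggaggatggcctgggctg
The ATP9A window on the minus strand at chr20:51768341-51768640 is set beside them as the most CpG-rich one of the set, with 65 CG, a count reached by 0.0366% of windows.
ATP9A: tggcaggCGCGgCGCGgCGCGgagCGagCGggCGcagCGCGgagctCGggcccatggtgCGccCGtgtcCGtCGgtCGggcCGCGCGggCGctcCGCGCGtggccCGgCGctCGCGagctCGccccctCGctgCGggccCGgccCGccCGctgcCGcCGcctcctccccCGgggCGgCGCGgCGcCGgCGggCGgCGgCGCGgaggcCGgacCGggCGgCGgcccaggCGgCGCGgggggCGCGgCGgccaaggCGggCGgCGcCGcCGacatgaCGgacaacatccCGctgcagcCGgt
ATP8A1 had 36 CG, ATP9B 37 and ATP10D 18. In all, 6 of the 7 windows of these 6 genes met both CpG island marks, all but the first start of ATP8B2. The log2 fold changes of these 6 genes were 1.80 (ATP11A), 0.43 (ATP8A1), 0.72 (ATP8B2), -0.067 (ATP9A), -0.015 (ATP9B) and -0.22 (ATP10D). Whether CG count goes with the difference between the groups was not tested. The GC box, searched as GGGCGG on both strands and itself containing a CG, occurred in 58.1% of all windows and in the same 6 windows, with 2 matches in ATP11A and 5 in ATP9A. Promoters of ATP11B, ATP8B1 and TMEM30A were not analysed here.

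**Figure D2:**
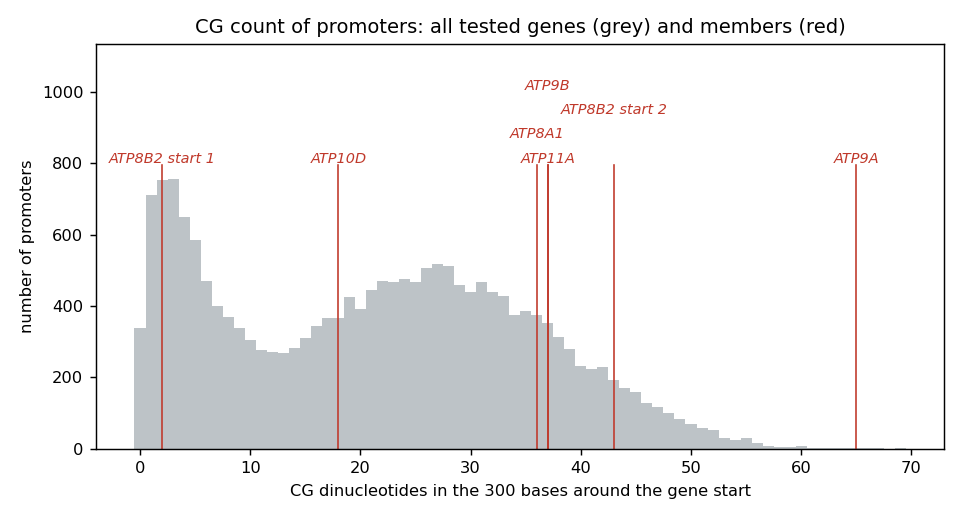
Number of CG dinucleotides in 300 bases around gene starts (horizontal axis) against the number of promoters with that count (vertical axis, grey bars, 19104 windows), with the members marked by red lines. ATP11A and ATP9B coincide at 37, and ATP8B2 has a start at 2 and another at 43.

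ATP8B1, whose loss causes an inherited cholestasis of the liver, had log2 values of 8.32, 7.79 and 7.92 in knockdown clones 1, 2 and 3, against 7.83, 8.30 and 8.11 in control clones 1, 2 and 3. The groups were interleaved, with the highest and the lowest value both in knockdown clones. The log2 fold change of -0.071 (SE 0.17) changed sign with single clones, and was 0.040 without control clone 2 and -0.23 without knockdown clone 1.

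ATP10D, a flippase of glucosylceramide, had log2 values of 4.68, 5.20 and 5.43 in knockdown clones 1, 2 and 3, against 5.30, 5.12 and 5.57 in control clones 1, 2 and 3. Knockdown clone 1 was the lowest of the 6 and lay under the lower quartile of its own array, 4.81. The log2 fold change was -0.22 (SE 0.20), and it was -0.0078 without knockdown clone 1.

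ATP9A and ATP9B work without a CDC50 subunit, at endosomes and the trans-Golgi network. ATP9A had log2 values of 7.21, 7.30 and 7.37 in knockdown clones 1, 2 and 3, against 7.42, 7.32 and 7.33 in control clones 1, 2 and 3. It was the least variable member, with a range of 0.211 log2 units over the 6 clones, and its log2 fold change was -0.067 (SE 0.080). ATP9B ranged from 6.46 to 6.83 in knockdown clones and from 6.43 to 6.81 in control clones, with full overlap and a log2 fold change of -0.015 (SE 0.14).

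TMEM30A, the shared subunit, had log2 values of 7.94, 8.08 and 8.23 in knockdown clones 1, 2 and 3, against 7.99, 8.08 and 8.004 in control clones 1, 2 and 3. The groups overlapped, with a log2 fold change of 0.058 (SE 0.094).

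Knockdown clone 1 lay farther from the mean of clones 2 and 3 than these lay from each other in 8 of the 9 genes, the exception being ATP11A, and the same held for 68.4% of all genes. In ATP11A clone 1 differed from that mean by -0.15, and clones 2 and 3 differed from each other by 0.35. In ATP8B2 the corresponding values were -1.30 and 0.096, and in ATP11B 0.54 and 0.016.

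**Figure D3:**
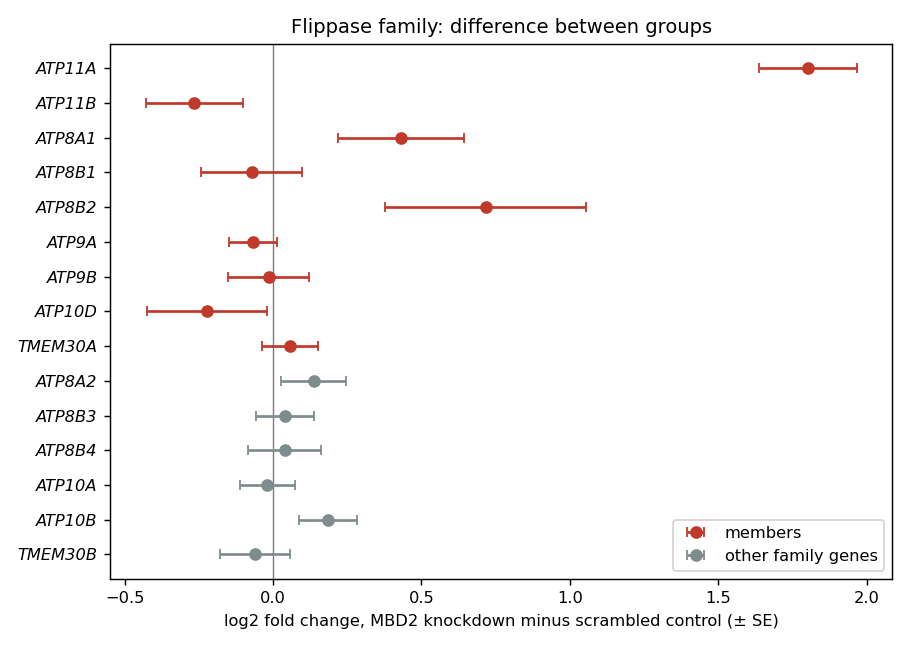
Log2 fold change (MBD2 knockdown minus scrambled control, horizontal axis) with its standard error for the 9 members (red) and 6 other genes of the family (grey). ATP11A lies at 1.80, ATP8B2 at 0.72 with the widest error, and the 6 other genes between -0.06 and 0.19.

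The remaining flippase genes were tested in the same fit over all genes. Of 8 named, 6 were measured, and 0 passed at an adjusted p under 0.05 in either direction, with a median log2 fold change of 0.039. Leaving out single clones moved that median to between 0.0068 (knockdown clone 1) and 0.099 (knockdown clone 2), with 0.063 without control clone 1 and 0.059 without knockdown clone 3. ATP10B had 0.19 (adjusted p = 0.624 in limma), ATP8A2 0.14 (adjusted p = 0.759 in limma) and TMEM30B, a second CDC50 subunit, -0.062 (adjusted p = 0.914 in limma). Of these 6 genes, 4 lay on average under the lower quartile of the arrays. Among P-type ATPases that move ions or other cargo, 0 of 20 measured genes passed; 9 had higher means and 11 lower, with a median of -0.018. The sign of that median rested on single clones: it was 0.050 without knockdown clone 3, 0.047 without control clone 1 and 0.019 without knockdown clone 2, and it was lower without knockdown clone 1 (-0.058) and control clone 3 (-0.032). Within them ATP2B4, a calcium pump of the plasma membrane, had 0.20 (adjusted p = 0.516 in limma) and ATP13A1, of the endoplasmic reticulum, 0.17 (adjusted p = 0.578 in limma). ATP2B1, another calcium pump, had -0.11.

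Scramblases, which let lipids cross in both directions, had 6 members with higher and 6 with lower means, a median of -0.0088, and 0 that passed. The median lay between -0.040 (without knockdown clone 1) and 0.012 (without knockdown clone 3) when single clones were left out. XKR8, the scramblase that caspases switch on in apoptosis, had log2 values of 6.65, 6.77 and 6.67 in knockdown clones, against 6.50, 6.46 and 6.62 in controls, a log2 fold change of 0.17 (adjusted p = 0.586 in limma). PLSCR1 had -0.27 and ANO3 0.19, both at dim signals. Of 9 ABC transporters that move lipids outward, 5 had higher and 4 lower means, with a median of 0.082, and 0 passed. The median was 0.13 without knockdown clone 1, 0.040 without knockdown clone 3, 0.052 without control clone 3 and 0.14 without the dimmest genes. The groups did not overlap in 4 of them as higher and in 1 as lower (6.57% and 8.87% of all genes). ABCA2, a lipid transporter of lysosomes, had log2 values of 8.67, 8.55 and 8.56 in knockdown clones, against 7.91, 8.18 and 8.35 in controls (log2 fold change 0.45, SE 0.12, adjusted p = 0.338 in limma). ABCA7 had 6.65, 6.63 and 6.64 in knockdown clones, against 6.27, 6.29 and 6.46 in controls (0.30, adjusted p = 0.338 in limma). ABCC1, a broad exporter of drugs and lipids, had 8.59, 8.62 and 8.65 in knockdown clones, against 8.85, 8.83 and 8.83 in controls (-0.22, adjusted p = 0.405 in limma).

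For the synthesis and transfer of phosphatidylserine and phosphatidylethanolamine, 5 of 13 means were higher and 8 lower, with a median of -0.026 and 0 that passed; leaving out single clones gave medians of -0.043 (control clone 3) to -0.0098 (knockdown clone 1), with -0.040 without control clone 1. LPCAT3, which remodels acyl chains of phospholipids, had 0.24 (adjusted p = 0.575 in limma), OSBPL5, which carries phosphatidylserine to the plasma membrane, -0.20, and ETNK1, the ethanolamine kinase, 0.088. Of 14 proteins that bind or read exposed phosphatidylserine, 10 had higher means and 4 lower, with a median of 0.074, and 0 passed. The median was -0.026 without knockdown clone 1, so its sign rested on that clone, and it was 0.12 without knockdown clone 2 or 3. ANXA2, an annexin, had log2 values of 4.58, 4.83 and 4.55 in knockdown clones, against 4.31, 4.26 and 4.13 in controls (0.42, adjusted p = 0.315 in limma). Each value except that of knockdown clone 2 lay under the lower quartile of its own array. GAS6, a ligand that bridges phosphatidylserine to the TAM receptors, had 0.32 (adjusted p = 0.476 in limma) and the TAM receptor gene TYRO3 0.23.

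Trafficking partners of the flippases had 4 higher and 8 lower means, a median of -0.061, and 0 of 12 passed. The median was 0.047 without knockdown clone 1, -0.11 without knockdown clone 2, -0.10 without knockdown clone 3, -0.096 without control clone 2 and -0.033 without control clone 3. The members with the smallest p were 3 subunits of retromer, the coat that retrieves cargo from endosomes. VPS26A had log2 values of 9.01, 8.98 and 8.87 in knockdown clones, against 9.35, 9.36 and 9.46 in controls (log2 fold change -0.43, SE 0.081, adjusted p = 0.229 in limma). VPS35 had -0.33 with overlapping groups, and its knockdown clones 1, 2 and 3 lay at -0.66, -0.12 and -0.20 relative to the control mean. VPS29 had -0.14 (adjusted p = 0.616 in limma) and was lower without overlap, as were 8.87% of all genes. MON2, which acts with ATP9A at endosomes, had 0.038.

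**Figure D4:**
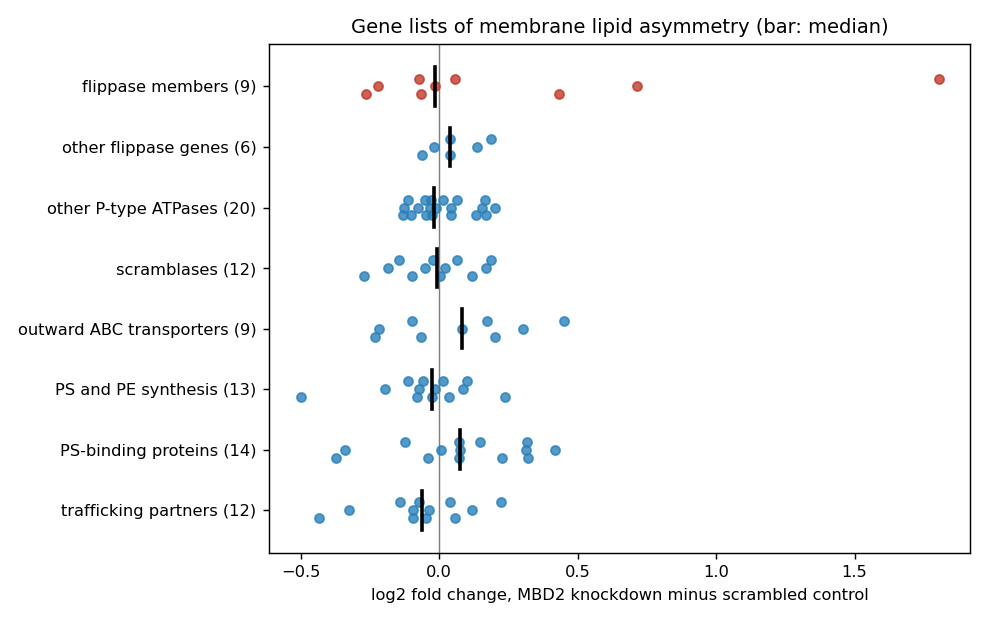
Log2 fold change (MBD2 knockdown minus scrambled control) of each measured gene of 8 lists, with the number of genes in brackets and the black bar at the median. PS is phosphatidylserine and PE phosphatidylethanolamine. ATP11A is the single point beyond 1, and the medians lie between -0.061 and 0.082.

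The genes beside ATP11A on chromosome 13 had smaller differences. ATP11A was chosen for its difference in these same arrays, so nothing is read from that comparison. Of the 12 nearest measured genes, 6 on each side in RefSeq order, 9 had higher and 3 lower means, 0 passed, and the median difference was 0.10 on the log2 scale. Leaving out knockdown clone 1 gave 0.061, and leaving out knockdown clone 3 gave 0.15. TUBGCP3, SPACA7 and ARHGEF7 on one side had 0.052, 0.052 and -0.016. On the other side MCF2L, the next measured gene, had log2 values of 6.40, 6.58 and 6.61 in knockdown clones, against 6.37, 6.37 and 6.61 in controls, a log2 fold change of 0.080 (SE 0.10), and the coagulation factor genes F7 and F10 had 0.13 and 0.16. The member of the 12 with the highest value was ANKRD10 at 0.30 (adjusted p = 0.494 in limma).

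**Figure D5:**
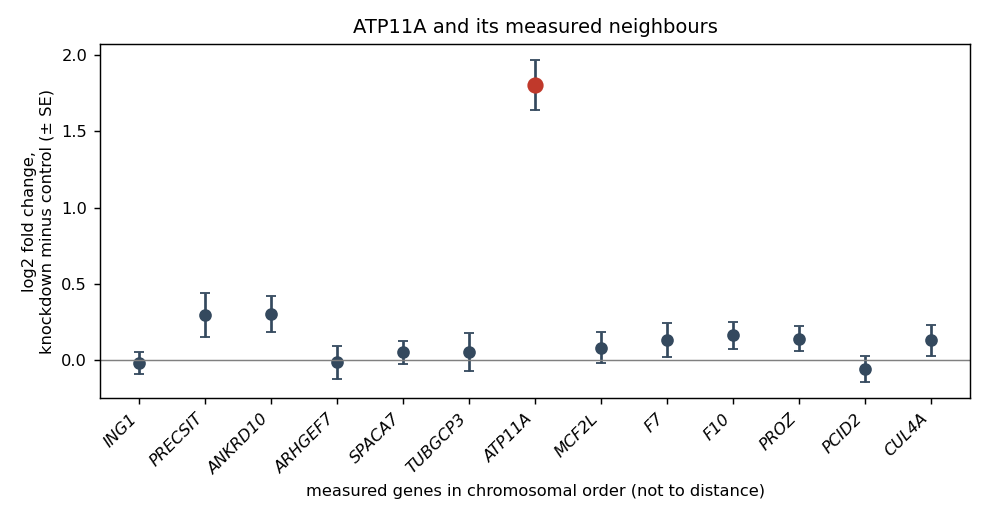
Log2 fold change (MBD2 knockdown minus scrambled control, vertical axis, ± SE) of ATP11A (red) and the 6 nearest measured genes on each side in chromosomal order. ATP11A lies at 1.80 and its neighbours between -0.061 and 0.30.

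The genes whose pattern over the 6 clones was most like that of ATP11A were CAPN5, SGK2, CA12, PDZK1IP1 and FOLR1. Their Pearson r with ATP11A was 0.995, 0.992, 0.978, 0.975 and 0.967 over 6 arrays, taken from 1293 genes with an SD of at least 0.3; the 6 points share arrays and fall into the study's groups, so r describes likeness only. CAPN5, a calpain protease, had log2 values of 8.21, 8.28 and 8.55 in knockdown clones, against 7.23, 7.21 and 6.69 in controls. Within each group it had the same extreme clone as ATP11A, with knockdown clone 3 highest and control clone 3 lowest. CA12, a carbonic anhydrase of the cell surface, had 8.62, 8.45 and 8.99 in knockdown clones, against 7.86, 7.69 and 7.22 in controls, in the same order of clones as ATP11A. The kinase gene SGK2 shared that order too, with 7.09, 6.89 and 7.24 in knockdown clones, against 6.08, 5.85 and 5.74 in controls. PDZK1IP1 and FOLR1 had other orders. PDZK1IP1 had 7.08, 7.22 and 7.12 in knockdown clones, against 6.16, 6.35 and 5.87 in controls. In FOLR1 control clone 3 was the highest control, with 4.676 against 4.668 in clone 1 and 4.579 in clone 2.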

How the data were processed

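Cytoplasmic RNA of 6 LNCaP clones, 3 with MBD2 knockdown and 3 with a scrambled hairpin, was measured on Affymetrix Gene ST arrays. The deposited values are on a log2 scale and were made by the authors with RMA and the R package oligo, per the submitters' processing notes; for versions, filters and build nothing is stated there. That they are log2 follows from RMA and from the range of the values. Groups come from the titles, and the clone numbers used here are the replicate numbers of the titles.

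Of 19712 features, 17334 have 1 gene symbol, which left 16704 genes (the feature with the highest mean where there were several). Knockdown minus control was fitted with limma 3.58.1 (lmFit, eBayes) in R 4.3.3, with Benjamini-Hochberg adjustment over all genes and a threshold of 0.05. No filter on dim genes was applied. The number of arrays limits precision.

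The members and lists were chosen with earlier results of these data known. All 9 members are named, and of each other list up to 3 genes with the smallest p, the 3 nearest neighbours on each side, and the 5 genes most like ATP11A; ANKRD10, MON2 and the markers were named after their values were seen. Deviations of same-numbered clones from their group means had correlations of -0.025, -0.19 and 0.17, and those of differently numbered clones -0.165 to 0.218. Deviations from a mean of 3 arrays constrain one another, so these values cannot decide whether the numbers pair the clones. The main fit used no pairing. Sequences are from RefSeq (GRCh38.p14), matched by symbol for 6 of 9 members. Alternatives were other normalizations, a filter on dim genes, the mean of a gene's features, the replicate block, array weights, trend and robust eBayes, averaging alike clones, and leaving out each clone.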

Additional observations from a re-analysis of the deposited data

How the results depend on the processing

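The log2 fold change of ATP11A lay between 1.64 and 1.91 in 15 alternatives, and each differed from the full fit's 1.80 by less than the SD between clones. ATP11B, ATP8A1, ATP8B2, ATP9A and ATP10D kept their sign in all 15, while ATP8B1, ATP9B and TMEM30A changed sign in 3, 4 and 1 of them. With the replicate number as a block ATP11A stayed at 1.80 and 0 genes passed.

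The count of genes with an adjusted p under 0.05, 0 in the full fit, was 1 after repeated quantile normalization, 1 after cyclic loess and 325 with array weights, and 0 to 70 when single clones were left out (70 without knockdown clone 1, 7 without control clone 1). Calls on the 9 flippase genes are not given, since the set was chosen on this contrast. Of the other lists, 2 genes passed with array weights, ANXA2 and VPS26A, and 0 in the full fit or when single clones were left out. The weights of knockdown clones 1 and 2 were 0.252 and 3.43, and the cause of the added calls was not tested.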

Other observations

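Features with names close to the family were looked up by name. ATP8B1-AS1, the antisense transcript of ATP8B1, had log2 values of 6.48, 6.33 and 6.09 in knockdown clones 1, 2 and 3, against 6.07, 6.26 and 6.22 in control clones 1, 2 and 3, with overlapping groups. The pseudogene ATP8B5P stood at 2.68 ± 0.05 in knockdown clones and 2.63 ± 0.01 in control clones (log2, SD, n = 3 each). The scramblase PLSCR3 shares its feature with a readthrough transcript, which had 6.29 ± 0.06 in knockdown clones and 6.36 ± 0.18 in control clones (log2, SD, n = 3 each).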
